A study of Mus musculus with 6 samples.

Results

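The class I phosphoinositide 3-kinases (PI3Ks) and the kinase PDK1 were followed at the RNA level in mouse pre-B cells with more or with less miR-26 activity. The genes were 10 in number: the catalytic subunits Pik3ca, Pik3cb, Pik3cd and Pik3cg, the regulatory subunits Pik3r1, Pik3r2, Pik3r3 and Pik3r5, the adaptor Pik3ap1, and Pdpk1, which encodes PDK1. Members were chosen by gene name alone, as every non-control probe whose annotation carried 1 of the 10 symbols. This gave 15 probes of the 55681 on the array, and each probe was kept apart from the others of its gene. Of the 15 probes, 14, from 9 genes, passed the limits for testing, as did 20168 probes of the whole array.

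The cells were the mouse pre-B line 1676, grown out of bone marrow and lacking both SLP-65 and LAT (SLP-65-/- LAT-/-). All 3 groups shared this genotype, retroviral infection, selection with puromycin at 1 µg/ml and culture in excess IL-7, a cytokine on which pre-B cells depend. Control cells carried an empty vector, miR-26a cells a vector expressing hsa-miR-26a-2, and sponge cells a vector whose transcript sequesters the miR-26 family. Each group held 2 arrays, 1 from each of 2 independent experiments with separately generated clones of the same line, and a sponge with scrambled sites was not analysed here. The arrays asked whether RNA levels of these genes shifted when the miR-26 family was overexpressed or withheld.

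A class I PI3K is a dimer of a p110 catalytic subunit and a regulatory subunit, and it phosphorylates the membrane lipid PIP2 to PIP3. PIP3 brings proteins with PH domains to the membrane, among them the AKT kinases and PDK1, and PDK1 phosphorylates the activation loop of AKT. In B cell precursors this route is fed by the pre-BCR and by cytokine receptors, and it carries growth and survival signals. Pdpk1, the gene of PDK1, is not Pdk1, the gene of a pyruvate dehydrogenase kinase.

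The expressed and the sequestered miRNA are shown because both arms act through the same seed, bases 2 to 8, printed here in capitals. The RefSeq entries of mouse (GRCm38.p6) give miR-26a-5p at chr9:119031811-119031832 and again at chr10:126995543-126995564, and miR-26b-5p at chr1:74394324-74394344, all on the plus strand.
mmu-miR-26a-5p: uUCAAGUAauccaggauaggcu
mmu-miR-26b-5p: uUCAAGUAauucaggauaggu
Both forms had the same seed and differed at 2 of the 21 positions they share. The DNA words that pair with it, TACTTGA (bases 2 to 8) and ACTTGAA (bases 2 to 7 with an A opposite base 1), overlap each other in 6 letters and were looked for in the sense of the transcript. Neither word stood in any of the 15 member probes, each of which is 60 bases long, while 0.96% of all probes on the array held at least 1 of them. A probe covers only a short stretch of its transcript.

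Among these genes, only probes of the regulatory subunits Pik3r5, Pik3r3 and Pik3r2 passed the test. The counts with miR-26a, 1 of 14 probes against control and 3 of 14 against sponge, were near the shares of all tested probes (9.64% and 16.8%). Each call was lost in some of the fits that left out 1 array, as given below. Calls over the whole array fell in these fits as well. With miR-26a, the p101 subunit gene Pik3r5 fell 1.43-fold against control, and 1.64-fold against sponge. Against sponge, Pik3r3, the gene of the small regulatory subunit p55γ, was 2.47-fold lower with miR-26a, though this dim probe met the signal limit only on the control and sponge arrays. Its log2 change went from -1.30 to -0.69 under another background correction (normexp), which adds an offset of 50 to every signal and so narrows the log ratios of dim probes. By contrast, Pik3r2, the gene of p85β, was 1.46-fold higher with miR-26a than with sponge. A fall in a bulk culture can reflect less RNA per cell or fewer cells that express the gene, and the arrays cannot tell these apart. No probe of a catalytic subunit, of Pik3r1, of Pik3ap1 or of Pdpk1 passed the test in any of the 3 contrasts.

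Throughout, a change is the difference in log2 signal between group means after quantile normalization, tested with limma over all 20168 tested probes with the experiment as a block, and a probe passed at a Benjamini-Hochberg adjusted p under 0.05. For miR-26a versus control, 1 of the 14 member probes passed, lower in miR-26a, against 9.64% of all tested probes. For sponge versus control, 0 of 14 passed, against 0.00992% of all tested probes (2 probes). In the direct contrast of miR-26a versus sponge, 3 of 14 passed, 2 lower and 1 higher with miR-26a, against 16.8%; of the 2 lower probes, that of Pik3r3 entered the test only through its brighter groups. At an unadjusted p under 0.05 the members counted 5, 4 and 5 of 14 in these contrasts, against 27.3%, 16.1% and 34.6% of all tested probes. The member counts thus stood near the shares of the whole array, so the members are described below by probe rather than as a set. The median log2 change of the 14 probes was -0.09, -0.03 and -0.05 in the 3 contrasts, beside 0.01, 0.00 and 0.02 over all tested probes. The contrasts share arrays and are therefore not independent of each other.

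**Figure D1:**
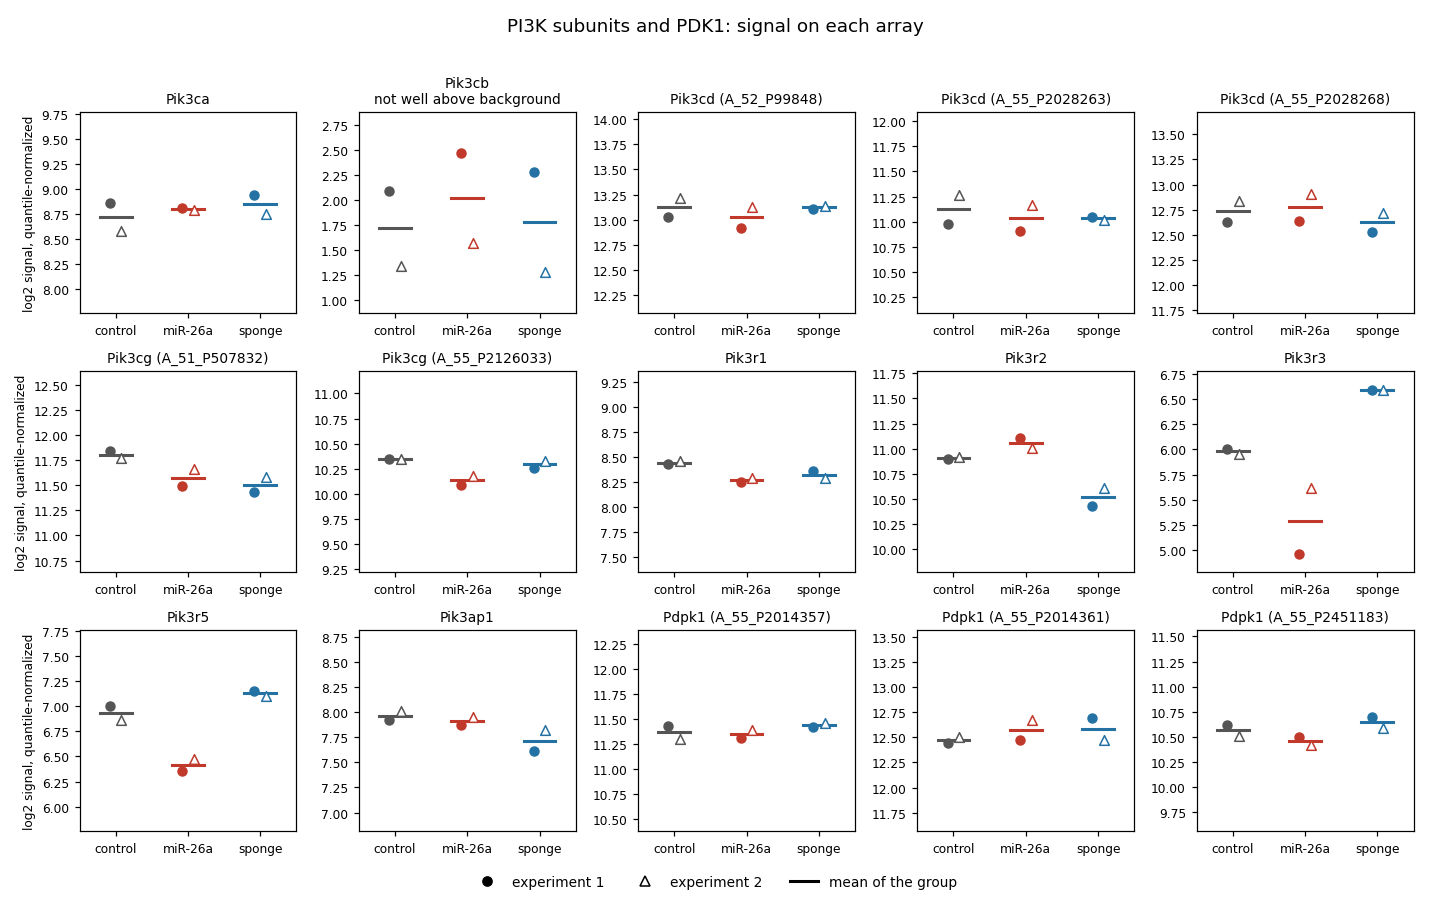
Quantile-normalized log2 signal (y axis) of each of the 15 member probes on the 6 arrays, by group (x axis), with circles for experiment 1, triangles for experiment 2 and a bar for the group mean; the y axis spans at least 2 log2 units in every panel and its position differs between panels. The miR-26a arrays lie lowest for Pik3r5 (6.36 and 6.48) and Pik3r3 (4.96 and 5.61), the sponge arrays lie lowest for Pik3r2 (10.43 and 10.61), and Pik3cb was not well above background on any array.

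Among the regulatory subunits, Pik3r5 encodes p101, which binds p110γ and makes it responsive to the βγ subunits of G proteins. Its probe (chr11:68310906-68310963, mm9, plus strand) read 7.01 and 6.86 log2 units in control, 6.36 and 6.48 in miR-26a, and 7.15 and 7.11 in sponge, in the order of experiments 1 and 2. Both miR-26a arrays lay below all other arrays, and both sponge arrays lay above both control arrays by less. The log2 change with miR-26a was -0.52 against control (SE 0.09, 95% interval -0.73 to -0.30, limma adjusted p = 0.0256), with -0.65 and -0.38 in experiments 1 and 2. Against sponge the change was -0.71 (SE 0.09, 95% interval -0.93 to -0.50, limma adjusted p = 0.00864). The sponge itself shifted the probe by 0.20 (95% interval -0.02 to 0.41, limma adjusted p = 0.344), which did not pass. Beside it on chromosome 11, with no RefSeq gene between them in GRCm38.p6, lies Pik3r6, described with the pathway genes below.

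The call for Pik3r5 against control was lost in most of the fits that left out an array. Each of these fits leaves 1 array in a group, and calls over the whole array fell in them as well. The loss is therefore not particular to this probe. Its log2 change was -0.43 without control replicate 1 and -0.61 without control replicate 2. Without miR-26a replicate 1 it was -0.41, and without miR-26a replicate 2 it was -0.63. The fits without sponge replicate 1 and without sponge replicate 2 both equal the fit of only the 4 arrays of the contrast. In that 4-array fit the call was lost (-0.52, limma adjusted p = 0.0625). It was also lost without the experiment as a block (limma adjusted p = 0.0653), where 311 of all tested probes passed, beside 1944 with it. The direction was the same in each of these fits.

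Pik3r3 encodes p55γ, a regulatory subunit that binds phosphotyrosine like p85 but lacks its N-terminal part. The Pik3r3 probe (chr4:115975600-115975659, mm9, plus strand) read 6.01 and 5.95 log2 units in control, 4.96 and 5.61 in miR-26a, and 6.59 and 6.59 in sponge. The 3 groups did not overlap, with miR-26a lowest and sponge highest, and the miR-26a arrays lay further apart than those of any other group for this probe. In the direct contrast the log2 change was -1.30 (SE 0.18, 95% interval -1.75 to -0.86, limma adjusted p = 0.0114), and the experiments gave -1.63 and -0.98. Against control, neither arm passed: miR-26a gave -0.69 (SE 0.18, 95% interval -1.14 to -0.25, adjusted p = 0.0706 by limma) and sponge gave 0.61 (95% interval 0.17 to 1.06, adjusted p = 0.240 by limma).

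This was a dim probe. Its processed signal was 63.8 and 63.1 in control, 30.5 and 47.9 in miR-26a and 90.2 and 108 in sponge, so that it met the limit of 50 on 4 of the 6 arrays, the control and sponge ones, though it was well above background on all 6. A probe that enters only through the groups in which it is bright had to differ to some degree, and its 3 contrasts should be read with that. The study also lists this gene among those selected on the same arrays. Under normexp background correction, with its offset of 50, the change against control was -0.31 and passed (adjusted p = 0.0453 by limma), and in the direct contrast it was -0.69 (adjusted p = 0.00109 by limma). Without miR-26a replicate 2 the change against control was -1.03 and passed (adjusted p = 0.00363 by limma), and without miR-26a replicate 1 it was -0.35 (adjusted p = 0.0875 by limma).

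Pik3r2 encodes p85β, a regulatory subunit present in many cell types. Signals of its probe (chr8:73292274-73292333, mm9, minus strand) were 10.90 and 10.92 log2 units in control, 11.11 and 11.01 in miR-26a, and 10.43 and 10.61 in sponge. Here the order was the reverse of the order of Pik3r3 and Pik3r5, since the sponge arrays were lowest and the miR-26a arrays highest, again with no overlap of the 3 groups. The direct contrast gave a log2 change of 0.54 (SE 0.09, 95% interval 0.32 to 0.76, limma adjusted p = 0.0174), with 0.68 in experiment 1 and 0.40 in experiment 2. The larger share of it lay between sponge and control (-0.39, 95% interval -0.61 to -0.17, adjusted p = 0.221 by limma), and miR-26a differed from control by 0.15 (95% interval -0.07 to 0.37, adjusted p = 0.344 by limma). Neither of these differences passed.

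All 3 calls of the direct contrast, those of Pik3r5, Pik3r3 and Pik3r2, were lost when either sponge array was left out. Such a fit leaves a single sponge array, and most calls over the whole array were lost in it too. The loss is therefore not particular to these 3 probes. With either control array left out, which equals a fit of only the 4 arrays of the contrast, the 3 probes still passed.

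Pik3r1 encodes p85α and its shorter forms p55α and p50α, the regulatory subunits on which B cell development depends. Its probe (chr13:102454406-102454465, mm9, minus strand) read 8.43 and 8.45 log2 units in control, 8.25 and 8.29 in miR-26a and 8.36 and 8.29 in sponge. Both control arrays were the highest, and both miR-26a arrays lay just below both sponge arrays. The log2 change was -0.18 with miR-26a (95% interval -0.35 to -0.003, limma adjusted p = 0.177) and -0.12 with sponge (95% interval -0.29 to 0.05, limma adjusted p = 0.440). The interval with miR-26a overlapped that of Pik3r5 (-0.73 to -0.30), and a difference between these probes was not tested.

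**Figure D2:**
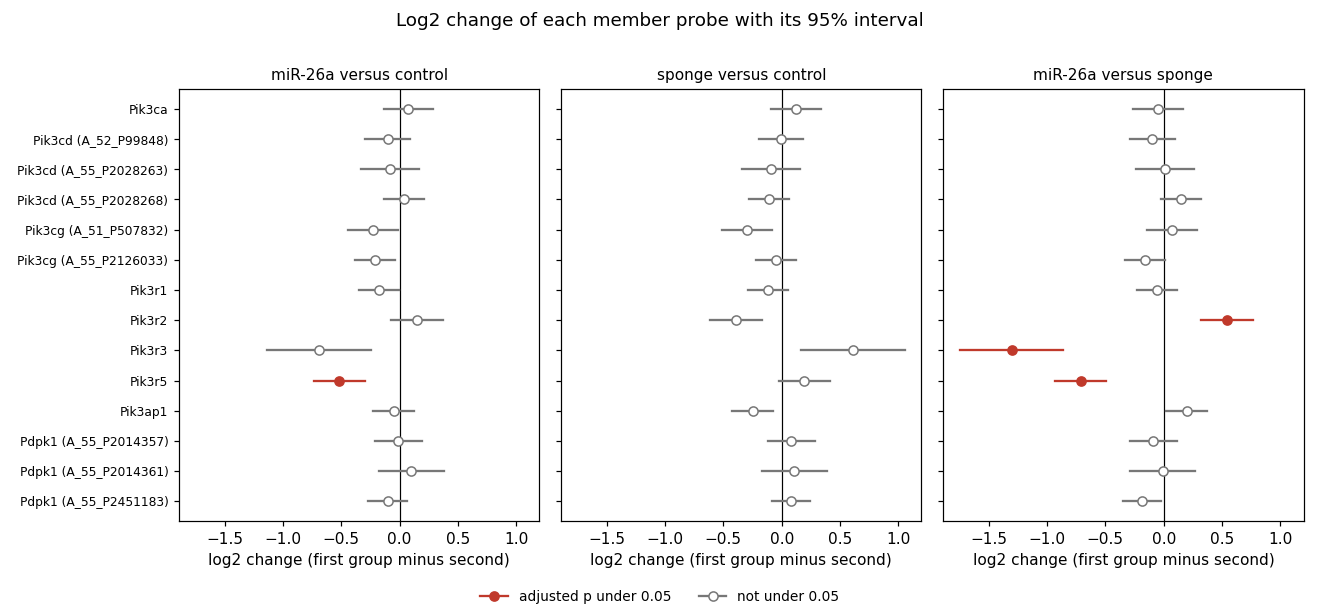
Log2 change (x axis) of each of the 14 tested member probes (y axis) in the 3 contrasts, with 95% intervals from the limma fit; filled red points have an adjusted p under 0.05. The filled points are Pik3r5 at -0.52 in miR-26a versus control, and Pik3r3 at -1.30, Pik3r5 at -0.71 and Pik3r2 at 0.54 in miR-26a versus sponge.

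Of the catalytic subunits, Pik3cd encodes p110δ, the leukocyte form on which B cells rely most, and was read by 3 probes. The first, A_52_P99848, read 13.03 and 13.22 log2 units in control, 12.92 and 13.13 in miR-26a and 13.11 and 13.14 in sponge. For A_55_P2028263 the values were 10.98 and 11.27, 10.91 and 11.17, and 11.05 and 11.02 in the same order. A_55_P2028268 read 12.63 and 12.84, 12.64 and 12.91, and 12.53 and 12.72. In each of the 3 probes the groups overlapped, and in control and miR-26a experiment 2 read above experiment 1. The log2 changes with miR-26a were -0.10, -0.08 and 0.04 against control, with 95% intervals that together ran from -0.33 to 0.21. With sponge they were -0.01, -0.09 and -0.11, with intervals from -0.34 to 0.19.

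Pik3cg encodes p110γ, the partner of p101, and had 2 probes. Probe A_51_P507832 read 11.84 and 11.77 log2 units in control, 11.49 and 11.66 in miR-26a and 11.43 and 11.58 in sponge, while A_55_P2126033 read 10.35 and 10.35, 10.09 and 10.18, and 10.26 and 10.33. Control arrays were the highest for both probes. The change with miR-26a was nearly equal by both, -0.23 (95% interval -0.44 to -0.01, limma adjusted p = 0.166) and -0.21 (95% interval -0.38 to -0.04, limma adjusted p = 0.116), and passed by neither. The probes differed in the sponge arm, in which A_51_P507832 gave -0.30 (limma adjusted p = 0.240) and A_55_P2126033 gave -0.05 (limma adjusted p = 0.733). Against each other, miR-26a and sponge gave opposite signs by the probes, 0.07 and -0.16.

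Pik3ca encodes p110α, a form present in nearly all tissues. It read 8.86 and 8.59 log2 units in control, 8.81 and 8.79 in miR-26a and 8.95 and 8.75 in sponge, with overlap of all groups. Its log2 changes were 0.07 with miR-26a (95% interval -0.14 to 0.29) and 0.12 with sponge (95% interval -0.09 to 0.34). Pik3cb encodes p110β, the other broadly expressed form. Its only probe (chr9:98939114-98939173, mm9, minus strand) was well above background on 0 of the 6 arrays, with processed signals of 2.49 to 5.53, and was not tested.

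Pik3ap1 encodes BCAP, a B cell adaptor that, once phosphorylated on tyrosine, offers docking sites to p85. The probe (chr19:41377001-41377060, mm9, minus strand) read 7.92 and 8.01 log2 units in control, 7.87 and 7.95 in miR-26a and 7.62 and 7.82 in sponge. Both sponge arrays lay below the other 4. The change with sponge was -0.25 (SE 0.07, 95% interval -0.43 to -0.07, limma adjusted p = 0.239) and in the direct contrast 0.20 (95% interval 0.02 to 0.37, limma adjusted p = 0.117), and neither passed. With miR-26a it was -0.05 (95% interval -0.23 to 0.13).

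Pdpk1 was read by 3 probes. A_55_P2014357 read 11.43 and 11.30 log2 units in control, 11.31 and 11.39 in miR-26a and 11.42 and 11.46 in sponge, and A_55_P2014361 read 12.44 and 12.50, 12.47 and 12.67, and 12.69 and 12.47. In both of these, miR-26a and control overlapped. For A_55_P2451183 the values were 10.62 and 10.51, 10.50 and 10.42, and 10.70 and 10.59, with miR-26a lowest. The changes with miR-26a against control were -0.01, 0.10 and -0.10, with 95% intervals that together ran from -0.27 to 0.38, and with sponge they were 0.08, 0.11 and 0.08, with intervals from -0.17 to 0.39. In the direct contrast A_55_P2451183 gave -0.18 (95% interval -0.35 to -0.02, limma adjusted p = 0.113), and the other probes gave -0.09 and -0.01.

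A p that misses the threshold does not show that a gene stayed the same, and with 2 arrays a group the intervals above set what could be seen. The p-values measure the spread between these arrays of clones of a single line.

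The probes whose pattern over the 6 arrays was most like that of Pik3r5, by Pearson's r against 15104 annotated probes of other genes, were those of Tecpr1 (r = 0.998), Tbc1d15 (r = 0.997) and Med7 (r = 0.996). For Pik3r2 they were those of Fadd (r = 0.995), Pdk3 (r = 0.993) and Smtn (r = 0.993). These are descriptions over 6 arrays that share 3 conditions and 2 experiments. The genes moved less than the members they resembled, since Tecpr1, Tbc1d15 and Med7 changed by -0.17, -0.30 and -0.24 log2 units with miR-26a against control, where Pik3r5 changed by -0.52.

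Around these subunits, further genes of the pathway were examined, and 54 of their probes, from 33 genes, were tested. The list was chosen with earlier results of these data known, so its counts beside the shares of all tested probes describe it and do not test it. With miR-26a against control, 8 of the 54 probes passed, 7 lower and 1 higher, against 9.64% of all tested probes, and the median log2 change was -0.06 beside 0.01. All 8 calls were lost when either control array was left out, and calls over the whole array fell as well. Without the experiment as a block 1 probe passed, beside 311 of all tested probes. With sponge against control 0 passed, against 0.00992% of all tested probes, and 12 were under an unadjusted p of 0.05, against 16.1%. In the direct contrast 11 passed, 7 lower and 4 higher with miR-26a, against 16.8%, with a median of 0.04 beside 0.02 over all tested probes. Most of these 11 calls were lost when either sponge array was left out, as were most calls over the whole array. Without the block the direct contrast gave 3 probes, beside 997 of all tested probes.

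Other PI3Ks, subunits and an inhibitor, with 8 tested probes, supplied 3 of the 7 lower probes, against 9.64% of all tested probes in either direction. Of these 3, 2 were probes of the same gene, Pik3ip1. Pik3r6 encodes p84 (also p87), the alternative partner of p110γ to p101, and read 10.71 and 10.51 log2 units in control, 10.04 and 9.79 in miR-26a and 10.78 and 10.50 in sponge. Both miR-26a arrays lay below all others, and control and sponge overlapped. The log2 change was -0.70 against control (SE 0.07, limma adjusted p = 0.00748) and -0.73 against sponge (SE 0.07, limma adjusted p = 0.00431). Pik3r5, the other adaptor subunit of p110γ, was lower as well. The calls of both genes against control were lost when either control array was left out, as were most calls over the whole array. Pik3ip1, a transmembrane inhibitor of PI3K, fell by 0.59 and 0.50 log2 units by its 2 probes against control (limma adjusted p = 0.00971 and 0.0177). Pik3c2a, a class II PI3K, passed by 1 of its 2 tested probes in the direct contrast (-0.55, limma adjusted p = 0.0262), and the other gave -0.07. The study lists Pik3r6, Pik3ip1 and Pik3c2a among genes selected on these arrays, so their direction is not independent evidence.

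The list of receptors, adaptors and kinases that recruit PI3K also held Cblb, a ubiquitin ligase. In this list 3 of 10 tested probes, those of Irs2, Gab1 and Cblb, were lower with miR-26a against control and 0 higher. Of all tested probes, 9.64% passed in either direction. Irs2, an adaptor of the insulin and IGF receptors that docks p85, read 10.15 and 10.41 log2 units in control, 9.21 and 9.32 in miR-26a and 10.16 and 10.67 in sponge. Gab1, a docking adaptor for p85 below growth factor receptors, read 7.37 and 7.52, 6.47 and 6.56, and 7.41 and 7.45. For both genes the miR-26a arrays lay apart from and below the other 4. The log2 changes against control were -1.02 for Irs2 (SE 0.11, limma adjusted p = 0.00869) and -0.93 for Gab1 (SE 0.07, limma adjusted p = 0.00470), and against sponge -1.15 and -0.92. Cblb passed by 1 of its 2 probes (-0.35, limma adjusted p = 0.0414), and the other, with processed signals of 48.4 to 74.3, gave 0.18.

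Of the phosphoinositide phosphatases, Inpp5k fell by 0.38 log2 units with miR-26a against control, just inside the threshold (limma adjusted p = 0.0498), and the other 4 tested probes did not pass. In the group labelled PIP3-binding signal proteins, whose members bind PIP3 or related lipids, 0 of 12 tested probes passed with miR-26a against control, beside the same 9.64%. Of this group, Vav1, a guanine nucleotide exchange factor, was higher with miR-26a than with sponge by 1 of its probes (0.45, limma adjusted p = 0.0144), while the other gave 0.20.

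Among the PDK1 substrate kinases, 1 of 19 tested probes was higher with miR-26a against control and 0 lower, again beside 9.64% of all tested probes. This was the probe of Pkn2, a protein kinase related to protein kinase C (0.35, limma adjusted p = 0.0351). Against sponge, 3 of the 19 were higher with miR-26a and 1 lower, against 16.8% of all tested probes in either direction. The higher ones were both probes of Rps6kb2 (0.46 and 0.37) and Akt1 (0.40). These 3 did not pass against control (limma adjusted p = 0.0956, 0.251 and 0.0969). The lower one was Rps6ka1, an RSK kinase (-0.27, limma adjusted p = 0.0447). The largest changes of the pathway genes with sponge against control, Pik3c2a (0.32), Vav1 (-0.32) and Inpp5e (-0.30), did not pass.

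**Figure D3:**
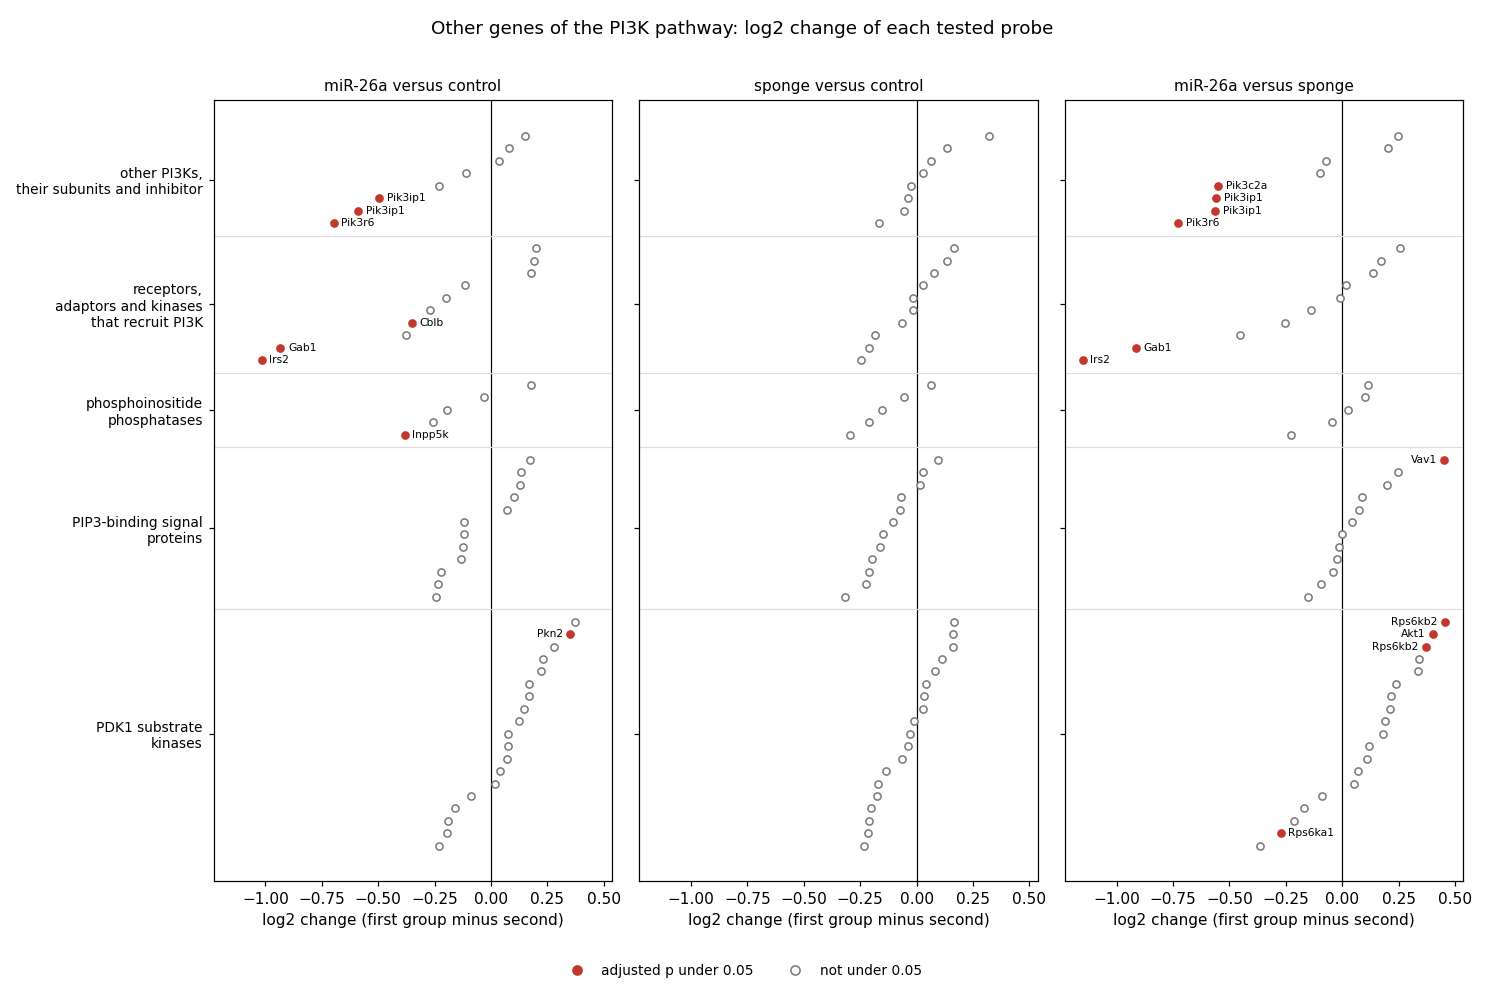
Log2 change (x axis) of the 54 tested probes of other PI3K pathway genes in the 3 contrasts, grouped by role (y axis) and sorted within each role and contrast; filled red points, named by gene, have an adjusted p under 0.05. Against control, Irs2 (-1.02), Gab1 (-0.93), Pik3r6 (-0.70) and Pik3ip1 (-0.59 and -0.50) lie furthest to the left, and no point is filled for sponge versus control.

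Each array had 28823 to 29800 of 59305 spots well above background and 0 saturated, and replicate arrays of a group correlated at 0.996 to 0.997 over the tested probes. All 8 pre-B cell markers listed, Cd79a, Cd79b and Igll1 among them, were well above background on all 6 arrays, with a summed log2 signal of 18.88 to 19.01. Of markers of other blood and stromal cells, 2 of 4 for T cells, 4 of 6 for myeloid cells, 1 of 4 for stromal cells, 1 of 3 for erythroid cells and 1 of 2 for NK cells passed that limit on every array. For the myeloid list the log2 of the summed signal was 12.06 and 12.40 in control, 12.16 and 12.37 in miR-26a and 11.84 and 12.34 in sponge. Probes of Lyz2 and Mpo were well above background on at most 1 array. With miR-26a against control, 1 of the 2 tested Itgam probes was lower (-0.82, limma adjusted p = 0.00720), the other gave 0.06, and Cd68 was higher (0.33, limma adjusted p = 0.0421). Against sponge, 1 of the 2 probes of Pax5, a pre-B marker, was lower (-0.36, limma adjusted p = 0.0280), and no other marker probe passed in any contrast. The part of these shifts in the member results was not tested. Probes of Blnk (SLP-65) and Lat were well above background on all arrays, but the deleted part of either gene was not given in the sources used here, so they check nothing. The Blnk probe was lower with miR-26a against control (-0.49, limma adjusted p = 0.0275) and against sponge (-0.61, limma adjusted p = 0.0123), and that of Lat passed in no contrast. The titles of both control samples quote other sample records, and all 6 arrays carried the same slide and scan. Experiment number coincided with the column of the slide, so the block of the fit holds both and they cannot be told apart. Each group also lay in a slide row of its own, with control in row 1, miR-26a in row 2 and sponge in row 4, so group and row cannot be told apart in any contrast.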

How the data were processed

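RNA of 6 samples was hybridized by the authors to single-color Agilent mouse arrays (1 slide) and read with Agilent Feature Extraction; the deposited spot intensity is background-subtracted and not normalized between arrays, and probe coordinates are mm9. A deposited table of quantile-normalized linear intensity from the authors served as an alternative. The intensity was quantile-normalized and log2-transformed, following the study's methods, and spots of a probe without outlier flags were averaged. A probe was tested if at least 1 array had it well above background and its signal exceeded 50 on 4 or more of the 6. limma 3.58.1 (R 4.3.3) was fitted to the 6 arrays, blocked by experiment, with Benjamini-Hochberg adjustment over all tested probes; with 2 arrays a group, the number of arrays limits the precision. The replicate number marks the experiment in the series' design, and same-numbered arrays deviated together (r = 0.38 to 0.59 over 3 pairs of groups). Every member probe is named; of the pathway genes, those with a probe that passed in a contrast and the 3 with the largest change per contrast are named; likeness was taken for the member probe of smallest p per contrast. Members, lists and tests were chosen with earlier results of these data known, and some listed genes are not reported here. Simulated arrays with known changes were used to test the fit. The alternatives were another scaling, normexp correction (offset 50), the authors' values, other filters, no block, other tests, array weights, probes averaged by gene and each array left out.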

Additional observations from a re-analysis of the deposited data

How the results depend on the processing

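For miR-26a versus control, the member probes that passed numbered 1 as reported and 2 with 75th percentile scaling, normexp correction or array weights, which added Pik3r3. They numbered 0 with all probes tested, with the methods' test of the 2 log ratios, with an unpaired test on 4 arrays and with only the 4 arrays of the contrast fitted, and 0 to 2 with each array left out. For miR-26a versus sponge, 3 became 0 with all probes tested, with the test of log ratios and with the unpaired test, and ran from 0 to 3 with each array left out. For the pathway genes, 8 probes against control became 0 in these same 3 settings and 5 with only 4 arrays fitted, and ran from 0 to 6 with each array left out; 11 against sponge became 0 in these 3 settings and ran from 2 to 12. The pairing of arrays by experiment mattered: with no replicate block 0 member probes and 1 pathway probe passed against control, and 3 and 3 against sponge. Sponge versus control gave 0 in every setting run. With all probes tested, with the test of log ratios and with the unpaired test, 0 probes of the array passed in either contrast with miR-26a. The losses in these 3 settings are therefore not particular to the member or pathway probes. Without the block, 311 of all tested probes passed against control, beside 1944 with it, and 997 against sponge, beside 3381. With only 4 arrays fitted, 1123 passed against control. The cause of these changes was not tested.

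Changes of sign were limited to probes that passed in no setting. With each array left out, the log2 change with miR-26a against control ran from -0.031 to 0.18 for Pik3ca, from -0.11 to 0.085 and -0.041 to 0.24 for the Pdpk1 probes A_55_P2014357 and A_55_P2014361, and from -0.17 to 0.0065 for the Pik3cd probe A_55_P2028263. With sponge it ran from -0.089 to 0.078 and -0.24 to 0.065 for the Pik3cd probes A_52_P99848 and A_55_P2028263, and from -0.015 to 0.18 and -0.064 to 0.28 for the same Pdpk1 probes. Between miR-26a and sponge it ran from -0.16 to 0.055 for Pik3ca, from -0.18 to 0.16 for A_55_P2014361 and from -0.15 to 0.16 for A_55_P2028263. With 75th percentile scaling, A_55_P2014357 gave 0.014 with miR-26a, A_52_P99848 gave 0.075 with sponge and A_55_P2028263 gave -0.024 in the direct contrast. With normexp, A_52_P99848 gave 0.015 with sponge, and A_55_P2014361 gave 0.018 and A_55_P2028263 gave -0.042 in the direct contrast. With probes averaged by gene, Pdpk1 gave -0.0051 and Pik3cd -0.049 against control with miR-26a, and Pik3cg gave -0.045 and Pik3cd 0.019 in the direct contrast. The scaling moved the median of all probes by at most 0.03. Signal over background limits Pik3cb, which was not well above background, and Pik3r3.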
